A study of Mus musculus with 72 samples.

Results

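Hearts of septic mice that received mesenchymal stem cells (MSC, 5 hearts) were compared with hearts of septic mice that received saline (CLP, 5 hearts). These 10 hearts were chosen by their column names in the authors' table, out of 72 arrays in the series. All animals were female C57Bl/6J mice, and organs were collected at 28 hours. In both arms the cecum had been ligated and perforated, which lets gut bacteria into the abdomen. At 6 hours the MSC mice received 250000 cultured stem cells in 100 µL through a cannula and the CLP mice saline. The cells had been isolated from male mice of the strain, expanded from a frozen vial and used at passages 8 to 11. A control arm of 5 sham-operated, saline-infused hearts entered the same fit. No sham mouse received cells, so the comparison holds cell infusion in injured mice only. Each arm holds 5 numbered mice in the labels, where the design text gives 4. The labels' tissue field names other organs for the hearts, and the organ was taken from title, source and description, which match each other.

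In sepsis the heart contracts less well although few of its muscle cells die. Bacterial products acting through Toll-like receptors and cytokines such as IL-6 induce stress and inflammatory genes in muscle, endothelium and resident macrophages. Fatty acid oxidation, the main energy supply of the adult heart, and genes of calcium handling and contraction are typically lowered. Mesenchymal stem cells given by vein mostly lodge in the lung and are studied for secreted factors that dampen inflammation.

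The organ given in the titles held: the 7 defining cardiomyocyte markers on the array (Myh6, Actc1, Tnni3, Myl2, Myl3, Mb and Ckm) averaged 14.3 to 14.9 log2 in every heart. Markers of other tissues were high in single hearts. Sham heart 78S was the only heart with the early thymocyte genes Dntt (9.57 log2, at most 5.75 in the other hearts) and Rag1 (10.22, at most 6.39) at such levels, while Ptcra, another thymocyte marker, read 6.15 there and up to 6.16 elsewhere. It also held 10.37 as the mean of 6 T and NK cell markers, where the other sham hearts lay at 5.16 to 6.79. CLP heart 107C had the highest mean of 5 B cell markers (8.04) and 8.00 for T and NK cells. CLP heart 37C and MSC heart 61M carried the fast skeletal muscle genes Mylpf (11.96 and 11.52) and Tnnt3 (10.50 and 10.65), which stayed at or below 8.31 and 6.51 in the other 13 hearts. The fast myosin Myh4 stayed at 4.99 and 4.57 in these 2 hearts. Over the arms compared, B cell markers ranged from 5.45 to 8.04 in CLP and from 5.47 to 7.03 in MSC hearts. The lung club cell gene Scgb1a1 exceeded 12 log2 in CLP hearts 34C (14.13), 37C (15.28) and 107C (12.64), in MSC heart 16M (13.82) and in sham heart 78S (13.43). The surfactant gene Sftpc read 8.48 in 37C and 6.48 in 34C and at most 5.98 in the others, and Sftpb stayed at 4.62 to 5.57 in every heart. Adipoq, the fat cell hormone adiponectin, was highest in 78S (12.38) and 107C (11.92) and lowest in MSC heart 44M (5.96). The mean of 4 adipocyte markers ranged from 5.23 to 8.73 in CLP and from 5.20 to 7.87 in MSC hearts. For 4 atrial markers the mean lay at 11.76 to 12.24 in CLP and 11.22 to 11.68 in MSC hearts, without overlap. In sham hearts it lay at 9.21 to 12.34. Singly, Nppa did not overlap between CLP and MSC, while Myl7, Sln and Bmp10 did. None of the 4 was called (limma adjusted p 0.246 to 0.764). Of the 9 atrial list members tested, 7 were below 0 (median -0.43), and the highest was 0.74. The arms did not overlap at 1 higher and 1 lower member. Of all 17693 probes tested, 561 higher and 278 lower did not overlap. No member was called with all hearts, and 1 was called as higher without 78S, where 3.47% of all probes were. The part of these markers in the results was not tested beyond the values without 107C, without 78S and without the 4 hearts 78S, 107C, 37C and 61M together. In bulk tissue, fewer cells of a type and less RNA per cell cannot be told apart.

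**Figure D1:**
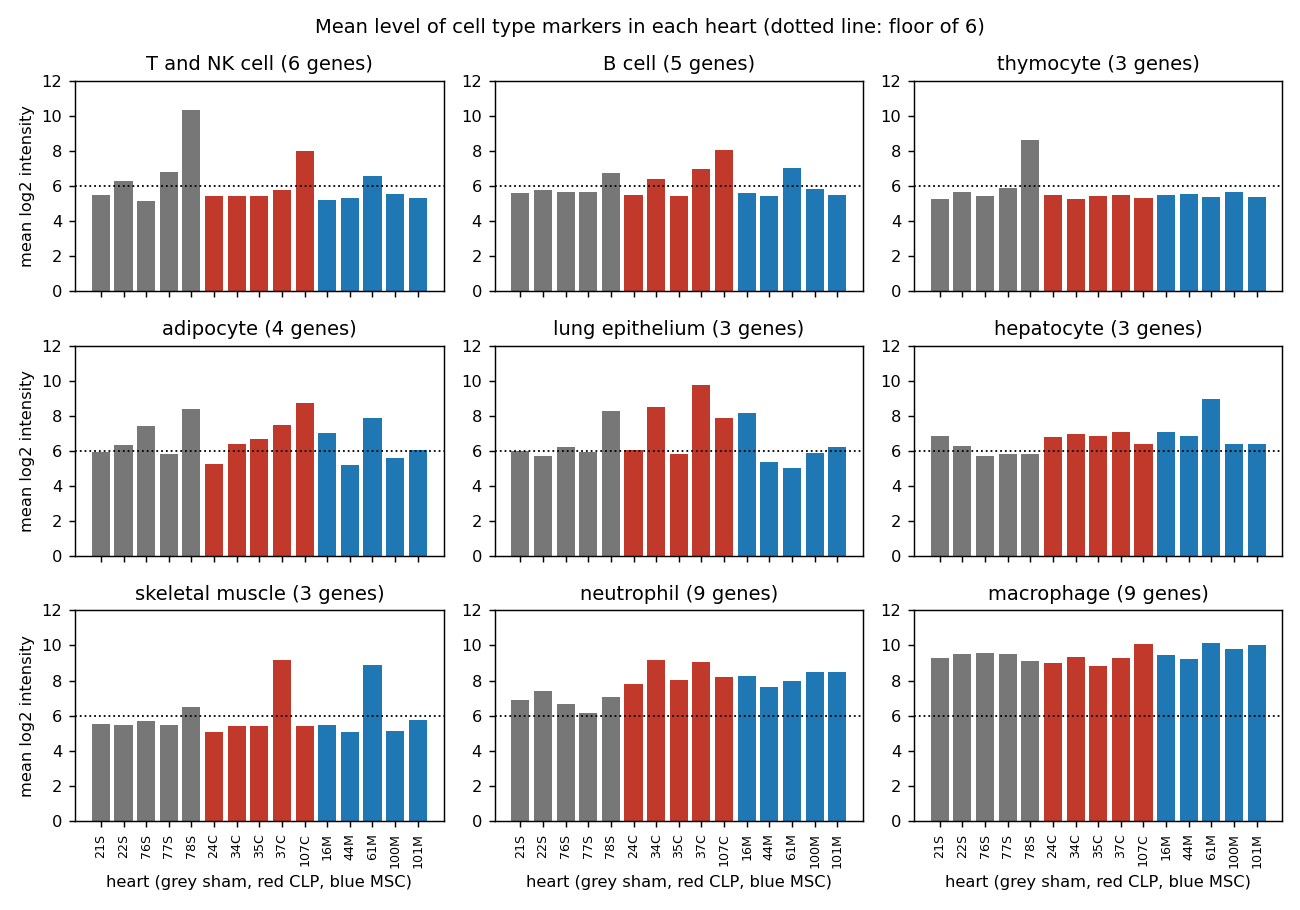
Mean log2 intensity of cell type markers fixed by list (vertical axes) in each of the 15 hearts (horizontal axes; grey sham, red CLP, blue MSC; number of genes in the panel titles). The dotted line is the floor of 6 log2, and 78S, 107C, 37C and 61M stand out for lymphocyte or skeletal muscle markers.

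Across the heart, MSC and CLP arms differed at a single probe when all 15 hearts were weighted equally. Zranb3, an enzyme that remodels stalled DNA replication forks, was higher in MSC hearts by 1.54 log2 (SE 0.23, 2.90-fold, n = 5 per arm, limma adjusted p 0.0464). It was the 1 probe called among 8820 tested (0.0113%), where a probe was tested if it exceeded 6 log2 in at least 5 hearts and called if its Benjamini-Hochberg adjusted p was below 0.05. At an unadjusted p below 0.05 there were 1536 probes, 890 higher and 646 lower in MSC hearts. The arms did not overlap at 430 probes (4.88%), 286 of them higher in MSC.

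The count depended on which hearts entered the fit. Without CLP heart 107C, 682 probes passed (7.73%), 335 higher (3.8%) and 347 lower (3.93%) in MSC hearts. Without sham heart 78S, 459 passed (5.2%), and without 78S, 107C, 37C and 61M 864 passed (9.8%). With array weights, which give noisier arrays less say, 762 passed (8.64%), and with the mean level of 32 lymphocyte marker probes as a covariate 283 did. Weights ran from 0.14 for 78S and 0.43 for 107C to 2.92 for MSC heart 101M. Leaving out any other single heart gave 0 to 5 probes.

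**Figure D2:**
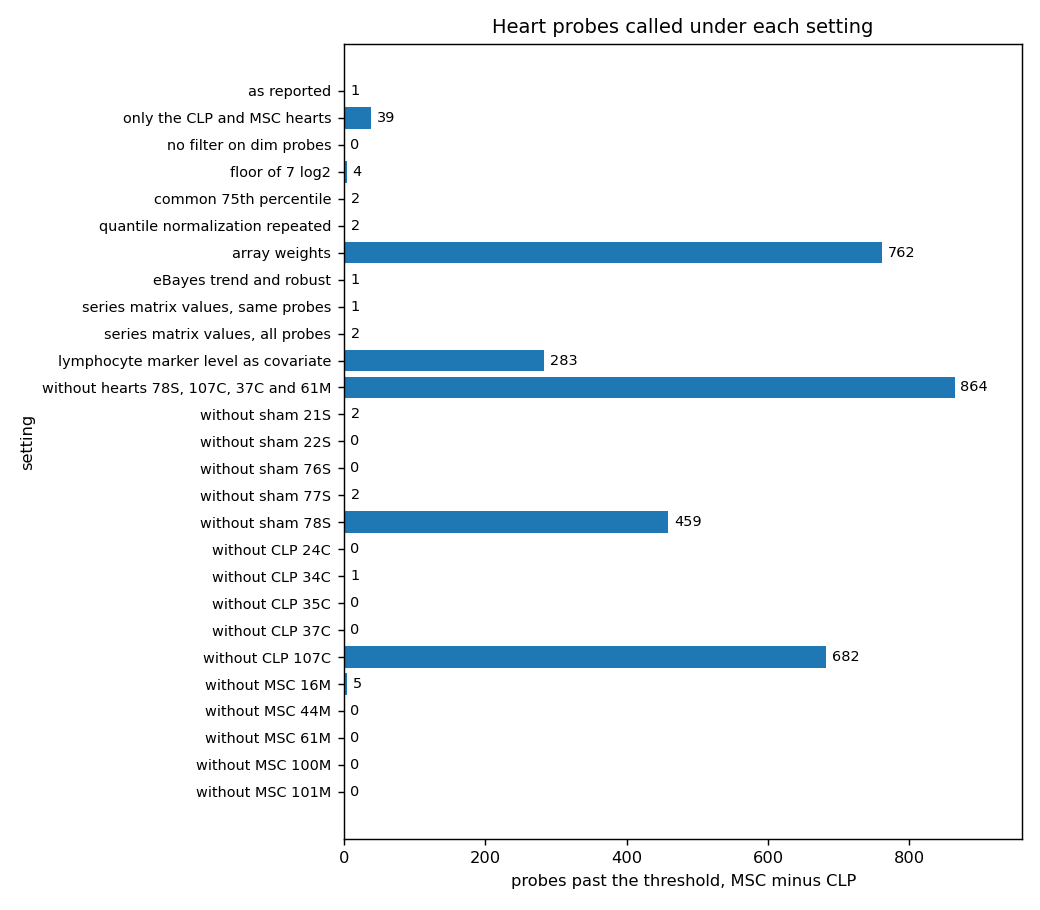
Number of heart probes past the threshold for MSC minus CLP (horizontal axis) under each setting (vertical axis), out of 8820 tested except where the filter changed. The bars for 107C (682), 78S (459), the 4 hearts together (864), array weights (762) and the lymphocyte covariate (283) stand far above the others.

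The level of Zranb3 in the CLP hearts (24C, 34C, 35C, 37C and 107C, the order used from here on) was 6.75, 7.51, 6.73, 6.49 and 7.79 log2. In the MSC hearts (16M, 44M, 61M, 100M and 101M) it was 8.18, 8.71, 8.70, 8.69 and 8.69, and in the sham hearts (21S, 22S, 76S, 77S and 78S) 7.42, 7.85, 8.10, 7.91 and 8.12. Every MSC heart lay above every CLP heart and above every sham heart, and 4 of the 5 MSC hearts read between 8.69 and 8.71. Against sham, CLP hearts were lower by 0.83 (adjusted p 0.0212).

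Because a single probe was called, 14 further probes higher in MSC hearts and 15 lower are described as values, taken by smallest unadjusted p among probes with 1 gene symbol whose arms do not overlap. None of these 29 passed in the fit of all hearts (adjusted p 0.0574 to 0.0897). All 29 passed without 107C (adjusted p up to 0.0452), without 78S (up to 0.0326), without the 4 hearts (up to 0.0484) and with array weights (up to 0.0254). They were picked on this same comparison, so these shares describe the picked probes and test nothing.

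**Figure D3:**
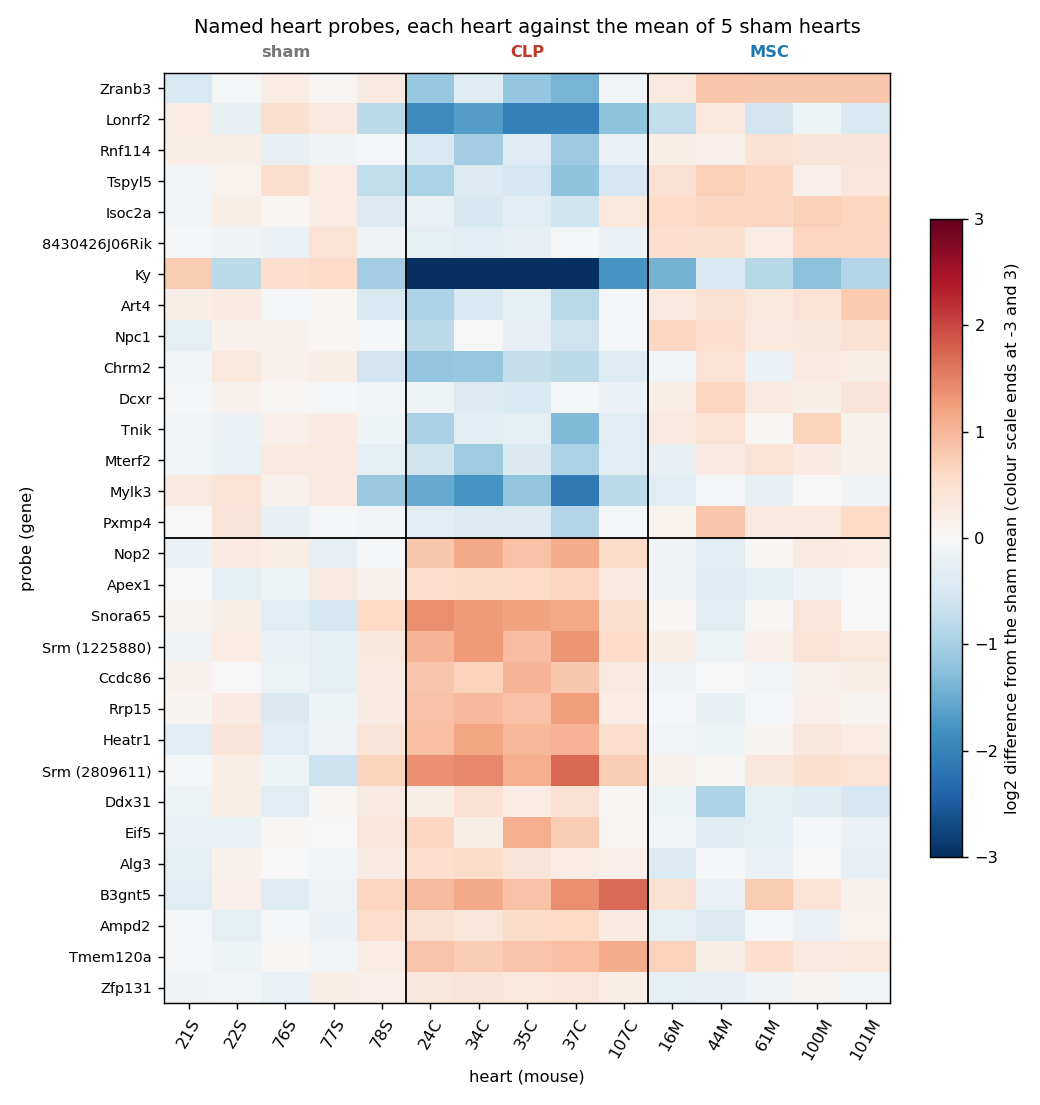
Log2 level of each named probe (rows) in each heart (columns) minus the mean of the 5 sham hearts, in colour. In the upper block MSC hearts are above CLP hearts, in the lower block below. Named genes were picked on this comparison.

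Ky, a muscle protein whose loss causes kyphoscoliosis in mice, had the largest difference among the 15 named higher probes. Its levels were 5.57, 6.44, 5.26, 6.03 and 7.66 log2 in CLP and 8.02, 8.97, 8.58, 8.20 and 8.55 in MSC hearts. Sham hearts read 8.40 to 10.21, so MSC hearts lay above every CLP heart and overlapped the lower sham values. The difference was 2.27 log2 (SE 0.43, limma adjusted p 0.0589), and CLP hearts were below sham by 3.24 (adjusted p 3.03e-04). CLP hearts 24C and 35C lay under the floor of 6, so the size of the difference depends on the array's background. A second Ky probe gave 2.02 over all probes, again with CLP hearts under the floor.

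Mylk3, the cardiac kinase that phosphorylates ventricular myosin light chain, was at 10.01, 9.73, 10.31, 9.38 and 10.72 log2 in CLP hearts. The MSC hearts held 11.18, 11.44, 11.28, 11.50 and 11.41, all above every CLP heart. The difference was 1.33 (SE 0.28, limma adjusted p 0.0689), with CLP below sham by 1.48 (adjusted p 0.00294). Sham heart 78S, at 10.39, lay apart from the other sham hearts (11.63 to 11.93).

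Chrm2, the M2 muscarinic receptor through which the vagus nerve slows the heart, read 5.58, 5.61, 6.04, 5.96 and 6.36 log2 in CLP and 6.67, 7.19, 6.58, 7.03 and 6.95 in MSC hearts. The difference was 0.97 (SE 0.19, limma adjusted p 0.0659). Part of the CLP values lie under the floor of 6, and the brighter Chrm2 probe gave 0.89 (adjusted p 0.114). Npc1, which exports cholesterol from lysosomes, was brighter and narrower, at 11.14, 11.91, 11.66, 11.28 and 11.85 in CLP against 12.54, 12.41, 12.21, 12.26 and 12.36 in MSC hearts (difference 0.79, SE 0.15, limma adjusted p 0.0606). Its MSC values also lay above all 5 sham hearts, whose highest was 12.05. The other Npc1 probes gave 0.80 (adjusted p 0.113) and 0.27 (limma adjusted p 0.473). On the latter probe CLP hearts 34C (8.58) and 35C (8.53) lay above every MSC heart (at most 8.52).

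The others higher in MSC hearts differed by 0.60 to 1.44 log2. They were Lonrf2 and Rnf114, RING finger proteins, Mterf2, a mitochondrial transcription factor, Pxmp4, a peroxisomal membrane protein, Dcxr, a carbonyl reductase, the kinase Tnik, Art4, an ADP-ribosyltransferase family member, Isoc2a, Tspyl5 and 8430426J06Rik. For Lonrf2 and 8430426J06Rik every CLP heart lay under the floor of 6 (at most 5.95 and 5.54). Tspyl5 and Mterf2 had part of the CLP hearts under it (from 5.27 and 5.72). The probe of 8430426J06Rik exceeded 6 only in MSC hearts and sham heart 77S, and read at most 6.22. The size of the difference for these 4 genes depends on the array's background. In all 15 named higher probes the CLP mean was below the sham mean, past the threshold in 9, where 9.04% of all tested probes were lower in CLP. These probes were picked through the same CLP hearts, so nothing is read from that count. Another 11 probes of these genes were tested over all probes, and all 11 had a positive difference (0.23 to 2.02).

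Among the named lower probes, Nop2, a methyltransferase of ribosomal RNA, read 8.01, 8.34, 8.06, 8.32 and 7.75 log2 in CLP and 7.09, 6.86, 7.22, 7.45 and 7.42 in MSC hearts. Sham hearts read 7.03, 7.45, 7.38, 6.95 and 7.16, which overlaps the MSC range and stays below every CLP heart. The difference was -0.89 (SE 0.15, limma adjusted p 0.0574), and CLP exceeded sham by 0.90 (adjusted p 0.0015). The dimmest of 3 Nop2 probes gave -0.25.

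Rrp15 and Heatr1, factors of ribosomal RNA processing, differed by -0.86 (SE 0.18) and -0.84 (SE 0.18), each with a limma adjusted p of 0.0689. Rrp15 levels were 9.19, 9.28, 9.17, 9.55 and 8.53 in CLP against 8.24, 8.07, 8.26, 8.45 and 8.39 in MSC hearts. Heart 107C, at 8.53, was the CLP heart nearest to the MSC arm. Ccdc86, a nucleolar protein, differed by -0.70, the RNA helicase Ddx31 by -0.71 and Snora65, a small nucleolar RNA that guides RNA modification, by -1.09.

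Srm, which makes spermidine, had 2 probes in the group. The brighter read 9.96, 10.03, 9.67, 10.29 and 9.32 log2 in CLP and 8.71, 8.62, 8.91, 9.06 and 9.0 in MSC hearts (difference -0.99, SE 0.22, limma adjusted p 0.07). Sham heart 78S, at 9.26, exceeded the other sham hearts (7.92 to 8.75). Eif5, a translation initiation factor, read 13.14, 12.70, 13.59, 13.24 and 12.57 in CLP and 12.42, 12.15, 12.22, 12.45 and 12.33 in MSC hearts, so the arms came close without overlapping. The other Eif5 probes gave -0.37 and -0.61. The others were Apex1, a DNA repair endonuclease, the glycosyltransferases Alg3 and B3gnt5, the AMP deaminase Ampd2, Tmem120a and the zinc finger gene Zfp131, at -0.91 to -0.44. Part of the MSC hearts lay under the floor of 6 for Ddx31, Ampd2 and B3gnt5 (from 5.44, 5.75 and 5.89). In all 15 named lower probes the CLP mean was above the sham mean, past the threshold in 11, where 8.42% of all tested probes were higher in CLP. These too were picked through the CLP hearts, and nothing is read from the count.

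Promoter sequence is shown for the named lower genes that hold the letters CACGTG, the E-box core bound by factors of the MYC and USF families. It was searched on both strands, where it reads the same, in windows of 250 bases before to 50 after the start (RefSeq, GRCm38.p6). Of 14 named lower genes 12 matched the table, with 14 windows, and 3 genes held the motif. Of the 15 named higher genes 12 matched, with 17 windows, and none did. Of all 32851 windows 7.15% held it, which is a share of windows and not of genes. Nop2 lies at chr6:125131633-125131932 (plus strand), Apex1 at chr14:50924699-50924998 (plus strand) with 3 copies and Ccdc86 at chr19:10949217-10949516 (minus strand). Capitals mark the motif, and the letters say nothing of binding.
Nop2: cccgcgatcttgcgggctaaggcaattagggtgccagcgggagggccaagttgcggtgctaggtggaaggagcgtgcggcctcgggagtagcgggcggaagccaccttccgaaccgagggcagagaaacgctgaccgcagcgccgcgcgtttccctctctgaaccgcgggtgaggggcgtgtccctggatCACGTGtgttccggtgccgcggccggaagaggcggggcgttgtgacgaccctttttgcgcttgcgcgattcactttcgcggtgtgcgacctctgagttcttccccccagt
Apex1: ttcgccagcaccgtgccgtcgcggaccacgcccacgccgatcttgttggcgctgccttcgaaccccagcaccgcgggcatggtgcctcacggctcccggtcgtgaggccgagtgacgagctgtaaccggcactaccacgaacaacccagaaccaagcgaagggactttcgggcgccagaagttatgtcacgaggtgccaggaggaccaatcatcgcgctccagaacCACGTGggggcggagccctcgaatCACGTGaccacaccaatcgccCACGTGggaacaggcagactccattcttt
Ccdc86: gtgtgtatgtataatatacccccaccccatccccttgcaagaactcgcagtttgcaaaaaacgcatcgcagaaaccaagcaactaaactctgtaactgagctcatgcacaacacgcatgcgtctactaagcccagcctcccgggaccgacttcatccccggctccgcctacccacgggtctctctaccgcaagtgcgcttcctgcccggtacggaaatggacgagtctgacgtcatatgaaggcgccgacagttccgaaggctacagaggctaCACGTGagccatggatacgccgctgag

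The second deposited table keys its columns by sample in every row and gave all 45255 probes, of which 17693 were tested. Again few probes passed, Zranb3 and Cited2 (0.0113%), against 3089 at an unadjusted p below 0.05. Cited2, a co-regulator that binds CBP/p300, was at 8.96, 9.27, 9.04, 9.09 and 9.33 log2 in CLP and 10.22, 10.23, 9.80, 10.54 and 10.17 in MSC hearts. All 5 MSC hearts lay above CLP and within or just beside the sham range (9.72 to 10.41). The difference was 1.05 (SE 0.16, 2.08-fold, limma adjusted p 0.0486), and CLP was below sham by 0.98 (adjusted p 0.00105). Tfb1m, which methylates mitochondrial ribosomal RNA, followed at 1.32 (SE 0.21, limma adjusted p 0.052). On the lower side Lrrc59, a ribosome-associated protein of the endoplasmic reticulum, had 2 probes among the 15 first (-0.85 and -0.65), and the ribosome assembly factor Grwd1 was at -0.75. Without 107C, 1359 probes passed over this wider set (7.68%, 680 higher and 679 lower), 922 without 78S (5.21%), 1762 without the 4 hearts (9.96%) and 1496 with array weights (8.46%).

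**Figure D4:**
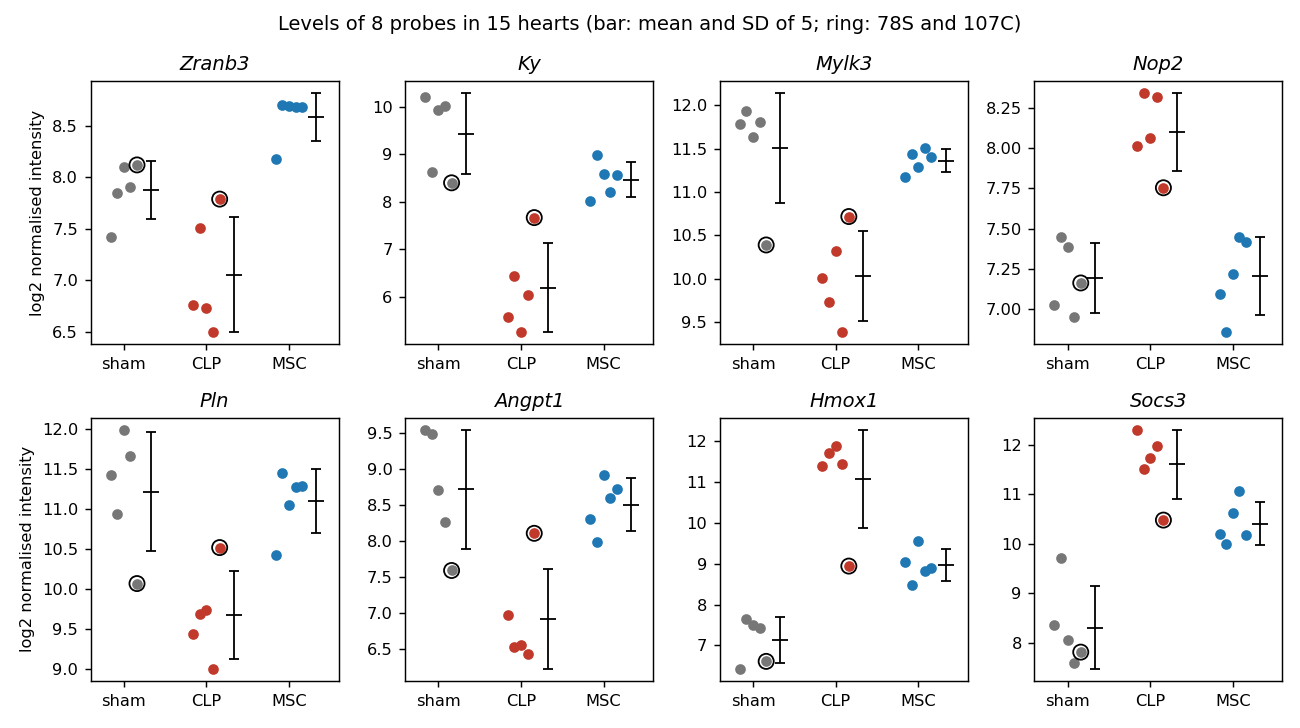
Log2 normalised intensity (vertical axes) of 8 probes in the 15 hearts by arm, each point a heart, with the mean and SD of 5 hearts beside it. Rings mark sham heart 78S and CLP heart 107C. CLP heart 107C is the CLP heart nearest to the MSC arm in all 8 panels.

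The 36 gene lists were read over all probes, with 1 probe per gene (the brightest). No member of any list passed with all hearts, and 109 of 649 had an unadjusted p below 0.05. The median difference over all tested probes was 0.03, 54.4% of them above 0. List counts below are therefore given as signs and medians and then, as called members, for the fit without 107C. In that fit 3.84% of all probes were called in each direction. For Ppargc1a, Pln, Myd88, Socs3, Angpt1 and Hmox1 below, 107C was the CLP heart nearest to the MSC arm. Leaving it out widens such differences, and that fit was added after the data had been seen. Members said to rise or fall without 107C are thus descriptions of the remaining hearts and not an independent test.

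Genes of fatty acid oxidation were higher in sign in MSC hearts in 30 of 33 tested, with a median of 0.40. The lowest p values belonged to Slc27a1, a fatty acid transporter (0.87, SE 0.25), Ppargc1a, the coactivator of mitochondrial gene programmes (1.03, SE 0.35), and Cpt2, the inner carnitine palmitoyltransferase (0.54, SE 0.18). Ppargc1a levels were 9.13, 10.26, 9.54, 9.40 and 11.04 log2 in CLP and 10.36, 11.23, 10.89, 11.25 and 10.84 in MSC hearts. Heart 107C alone exceeded part of the MSC arm. All 3 genes rose without 107C (limma adjusted p 0.0461, 0.0173 and 0.0366), and no other of the 33 did. Lpl, the brightest member, stood at 15.9 in each arm, near the highest value in these hearts (16.03).

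Respiratory chain genes were above 0 in 46 of 49, but by little (median 0.17), and none was called as higher in any of the settings used for the lists. The sole call without 107C was lower, Atp5k, at -0.97 (limma adjusted p 0.00988). In glycolysis (median 0.10, 0.06 without 107C, 20 tested) the glucose transporter Slc2a1 fell by 0.97 on the log2 scale without 107C (limma adjusted p 0.00303), from -0.76 with all hearts. Pfkl, the liver-type phosphofructokinase, was the called higher member.

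Of 25 sarcomere genes 16 were above 0, with a median of 0.10 that was 0.02 without 107C. None was called with all hearts or without 107C, 1 without 78S and 2 each without the 4 hearts and with array weights, all as higher. Over all 17693 probes tested, 614, 885 and 899 were called as higher in these last 3 fits. Tcap, the titin cap, had the smallest p (0.61, SE 0.17, limma adjusted p 0.102, and 0.036 without 78S). In calcium and ion handling (15 of 21 above 0, median 0.16) phospholamban, Pln, the brake of the sarcoplasmic calcium pump, led. Pln read 9.44, 9.69, 9.74, 9.0 and 10.52 log2 in CLP and 10.43, 11.45, 11.05, 11.28 and 11.30 in MSC hearts. The arms overlap through 107C and 16M alone, and the lowest sham heart read 10.07. The difference was 1.43 (SE 0.33, limma adjusted p 0.0847) and 1.64 without 107C (adjusted p 0.00988), the 1 call of that list. Without 78S, where 3.47% of all probes were called as higher, Kcnj3, Kcnip2 and Kcnj2, potassium channel genes, passed as well (limma adjusted p 0.0436, 0.0142 and 0.0488). The pump itself, Atp2a2, stood at 15.9 in each arm.

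In adrenergic and vagal signalling (13 tested, median 0.18) Adcy6, a cardiac adenylyl cyclase, was higher by 0.60 (SE 0.20) and Pde4b, which degrades cyclic AMP, lower by 1.03 on the log2 scale (SE 0.33). Both passed without 107C (limma adjusted p 0.0463 and 0.0118).

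Toll-like receptor and NF-kB genes were below 0 in 25 of 28, with a median of -0.35. Myd88, the adaptor shared by most Toll-like receptors, had the smallest p. It read 12.31, 11.89, 12.07, 12.19 and 11.43 log2 in CLP and 11.29, 11.09, 11.54, 11.38 and 11.24 in MSC hearts, with 107C alone inside the MSC range. The difference was -0.67 (SE 0.17, limma adjusted p 0.0888), and sham hearts averaged 10.37. Without 107C 10 of the 28 fell: Myd88, Irak2, Map3k8, Il1r2, Tnfrsf1a, Nfkbiz, Tnfaip2, Rela, Tirap and Cd14, by 0.46 to 1.24 on the log2 scale. They include the receptor chain (Cd14, Tirap, Myd88, Irak2), the p65 subunit Rela, and Il1r2, a decoy receptor. As lower, 2 of the 28 were called without 78S, 10 without the 4 hearts and 8 with array weights. Over all probes, 5.21%, 9.96% and 8.46% were called in these fits, both directions together. Against sham, 20 of the 28 were higher in CLP hearts with all hearts in the fit (8.53% of all probes were).

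Acute phase and IL-6/STAT3 genes were below 0 in 22 of 25 (median -0.45, and -0.73 without the 4 hearts). Against sham, 18 of the 25 were called as higher in CLP hearts (median of the list 2.0), where 8.53% of all probes were. Socs3, the feedback inhibitor of STAT3, read 12.30, 11.51, 11.74, 11.98 and 10.48 log2 in CLP and 10.19, 9.98, 10.62, 11.06 and 10.18 in MSC hearts, and again 107C lay inside the MSC range. The difference was -1.20 (SE 0.38, limma adjusted p 0.139) and -1.48 without 107C (adjusted p 0.0229). Bcl3, Cebpb, Mt2 and Stat3 also fell in that fit. Of the 25, 1 was called as lower without 78S, 5 without the 4 hearts and 2 with array weights. Over all 17693 probes tested, 308, 877 and 597 were called as lower in these fits. Mt1, the brightest member, did not differ beyond its error (0.07, SE 0.16), at 15.9 in CLP and 16.0 in MSC hearts.

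Cytokine and chemokine genes were mixed (17 of 30 below 0, median -0.14, and -0.09 without 107C). Ccl19, a chemokine for T cells and dendritic cells, and Il1rn, the IL-1 receptor antagonist, fell without 107C, by 1.08 and 1.27 on the log2 scale (limma adjusted p 0.0419 and 0.0171). Interferon-stimulated genes were above 0 in 24 of 34 (median 0.15), and in 28 of 34 without 107C (median 0.35). None was called with all hearts or without 107C, and 1 was called as higher without the 4 hearts. Over all 17693 probes tested, 885 were called as higher in that last fit. Oas2 had the smallest p, at 0.65 (SE 0.28).

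In the endothelial and coagulation list the direction varied from gene to gene (15 of 34 above 0, median -0.02, and -0.06 without 107C). Angpt1, the vessel-stabilising ligand of the Tie2 receptor, read 6.97, 6.53, 6.56, 6.44 and 8.11 log2 in CLP and 8.31, 7.98, 8.91, 8.60 and 8.73 in MSC hearts. The difference was 1.58 (SE 0.37, 3.0-fold, limma adjusted p 0.0847). Angpt2, its context-dependent antagonist, read 8.52, 8.95, 8.85, 9.16 and 8.30 in CLP and 8.36, 7.62, 8.36, 7.48 and 7.56 in MSC hearts (-0.88, SE 0.24, limma adjusted p 0.101). Without 107C Angpt1 rose by 1.88 (limma adjusted p 0.00661) and Angpt2 fell by 0.99 on the log2 scale (adjusted p 0.0278). Selp (P-selectin, which captures leukocytes), Plaur (the urokinase receptor) and Plat (tissue plasminogen activator) fell in the same fit by 1.98, 1.44 and 1.05. The defining endothelial markers Cdh5, Pecam1, Tek and Emcn averaged 10.7 to 11.1 in both arms.

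Hmox1, heme oxygenase, which degrades heme and is induced by oxidative stress, read 11.40, 11.70, 11.88, 11.45 and 8.94 log2 in CLP and 9.05, 8.49, 9.57, 8.83 and 8.88 in MSC hearts. Heart 107C lay inside the MSC range, and the other 4 CLP hearts lay above every MSC heart. Sham hearts read 6.42 to 7.65. The difference was -2.11 (SE 0.45, 4.32-fold, limma adjusted p 0.077) with all hearts and -2.64 without 107C (adjusted p 3.55e-04). Slc7a11, the cystine importer for glutathione synthesis, differed by -2.27 (SE 0.67, limma adjusted p 0.113), over a wide CLP range of 5.83 to 9.92. Of the 26 genes tested (median 0.04, and 0.07 without 107C), Hmox1, Slc7a11 and Srxn1 fell and the antioxidant enzymes Gstm1 and Cat rose without 107C.

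Matrix genes were below 0 in 27 of 39 (median -0.09, and -0.20 without the 4 hearts). The aggrecanase Adamts4, the basement membrane collagen Col4a1 and the receptor Tgfbr1 fell without 107C, by 1.85, 1.01 and 0.53 on the log2 scale. In the apoptosis and DNA damage list (22 tested, median -0.13, and -0.26 without 107C) Gadd45g, Mdm2 and Mcl1 fell in that fit. Without 78S, no member of these lists of matrix and apoptosis genes was called. Per3 led the clock list (0.93, SE 0.21, limma adjusted p 0.0783), whose median was 0.02 and -0.07 without 107C.

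**Figure D5:**
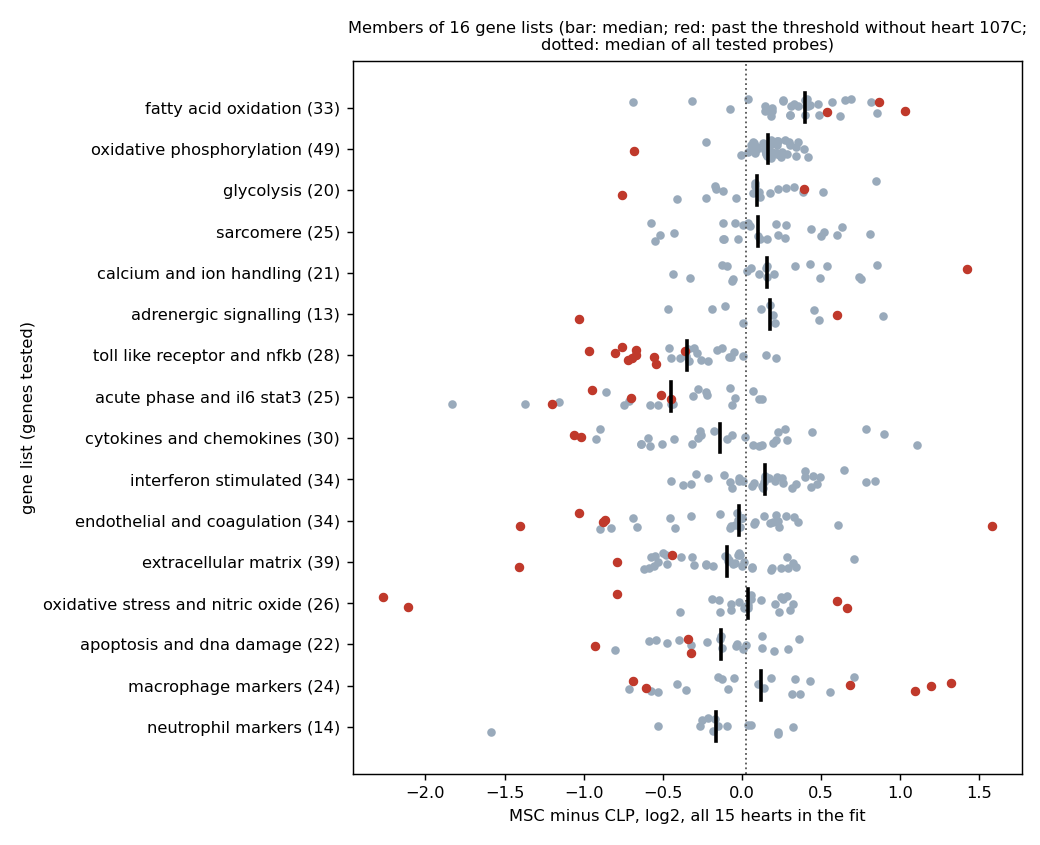
MSC minus CLP in log2 (horizontal axis) for each tested member (points) of 16 gene lists (rows, with the number tested), from the fit of all 15 hearts. Black bars are list medians, the dotted line is the median of all tested probes (0.03), and red points passed the threshold without heart 107C, 10 of them in the Toll-like receptor and NF-kB list.

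Immune cell markers did not follow a single direction. Of 24 macrophage genes 13 were above 0 (median 0.12), and 14 without 107C (median 0.27). Adgre1, a tissue macrophage marker, read 6.76, 7.38, 6.67, 6.83 and 8.71 log2 in CLP and 7.33, 8.23, 8.74, 9.30 and 8.74 in MSC hearts (1.20, SE 0.38, limma adjusted p 0.14), while the inhibitory Fc receptor Fcgr2b was lower (-0.61, SE 0.20). Without 107C, Adgre1, Lyz2, Aif1 and C1qa rose and Fcgr2b and Mrc1 fell. Without 78S none was called as higher and 1 as lower. With array weights 1 was called as higher and 2 as lower, and without the 4 hearts 5 in each direction. Over all 17693 probes tested, 614 were called as higher and 308 as lower without 78S, and 899 and 597 with array weights. Without the 4 hearts 885 and 877 were. Of 14 neutrophil genes 9 were below 0 (median -0.16, and 0.06 without the 4 hearts) and none was called in any setting used for the lists. S100a8, the brightest, averaged 13.4 in CLP, 13.3 in MSC and 11.0 in sham hearts. B cell markers (median -0.68) and lung epithelial markers (median -1.38) were lower in MSC hearts in sign, and without the 4 hearts their medians were -0.24 and -0.14.

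The infused cells came from male mice, so Y-linked transcripts would mark them in these female hearts. Of the 3 defining Y-linked genes on the array, Eif2s3y and Kdm5d stayed below 6 log2 in every heart. Uty lay between 5.46 and 6.58 in all 15 hearts, with a difference of 0.01 between MSC and CLP (SE 0.19). Donor transcripts were thus not detectable above the background of the array, which bounds neither cell number nor survival. Of 8 tested markers of cultured stromal cells, 6 were below 0 in MSC hearts (median -0.08). Without 107C, and without the 4 hearts, 4 were below 0 and 4 above.

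To ask whether the heart differed from the other organs of the same mice, each mouse's heart value minus the mean of its liver, lung and kidney was tested. No probe of 6826 passed by limma (0%, 745 at an unadjusted p below 0.05, n = 5 mice per arm). Without mouse 107C, 54 passed in the same fit of differences (0.791%). With the mouse as a random replicate block over 60 arrays and all mice, 40 of 6826 passed. Rnf114, a ubiquitin ligase, had the largest higher value by p, at 0.92 (SE 0.18, adjusted p 0.203, 0.00291 with the block), from 0.95 in the heart and -0.05, 0.22 and -0.08 in liver, lung and kidney. Efcab2, an EF-hand gene of cilia, gave 1.09 and 1.17 on its 2 probes (adjusted p 0.00418 and 0.00291 with the block, 0.222 for each without it), at 1.12 and 1.28 in the heart and between -0.05 and 0.24 elsewhere. Reep6 gave -1.19 (SE 0.23) and differed by 1.73 in liver and 1.46 in kidney and by -0.05 in the heart.

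The named probes, picked on their heart values, were also read in the other organs of the same mice. Of the 15 named lower probes, 13 of 14 tested in liver, 15 of 15 in lung and 13 of 14 in kidney were below 0, where 52.0%, 51.8% and 49.5% of all tested probes were. In liver, where 537 of 9012 probes passed (5.96%) and 2.93% as lower, 4 of them passed by limma: Snora65 (-1.06), Rrp15 (-1.22), Heatr1 (-0.75) and Ddx31 (-1.05), each at an adjusted p of 0.042. None passed in lung, where no probe did, or in kidney, where 2 did (0.0227%). Organs of a mouse are not independent samples. Of the named higher probes, 8 of 9 tested in liver, 10 of 10 in lung and 6 of 8 in kidney were above 0, where 48.0%, 48.2% and 50.5% of all tested probes were. Pxmp4 passed in liver (0.60, limma adjusted p 0.0448), where 3.03% of all probes were called as higher. Of the others, Zranb3 differed by 1.25 in liver, 0.42 in lung and 0.75 in kidney (limma adjusted p 0.0544, 0.0814 and 0.0868). Ky, Mylk3 and Chrm2 were not above the floor in liver or kidney, and of these genes the lung alone gave a value, 0.83 for Ky (limma adjusted p 0.0721).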

How the data were processed

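Total RNA was extracted with Trizol and biotinylated cRNA hybridised to Illumina arrays, per the labels' protocols. The authors deposited 1 value per probe and array in log2 units; no source used here states the background correction or normalization, and the values were used as deposited. Of 45255 complete rows in the non-normalized table, those that follow the header numbered 22504 and were the main data; 1 column with no sample was not used. The second deposited table keys columns by sample. In heart, deviations of probe pairs of 1 gene, 1 in each kind of row, correlated at a median of 0.821 over 724 genes. With arrays of an arm interchanged the medians were -0.225 to -0.174. The deviations sum to 0 in each arm, which by itself sets the interchanged values below 0 on average, so they are no separate comparison. The second table gave the values over all probes, with each probe's level restored by a constant.

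Gene symbols came from the platform annotation: 17370 of the 22504 probes carried 1 symbol, 7 several and 5127 none. limma 3.58.1 (R 4.3.3) fitted the 3 heart arms together. The named probes were up to 15 in each direction past the threshold with arms not overlapping, filled by smallest unadjusted p; in each list, the 3 members of smallest p and the brightest, and, chosen after their values were seen, those called without heart 107C or 78S. Members and lists were chosen with earlier results of these data known. The same mouse numbers mark liver, lung, kidney and heart of a mouse in the labels. Heart deviations from the arm mean correlated with those of the same mouse's liver, lung and kidney at 0.130, 0.212 and 0.175 on average. For other mice of the arm the values were -0.032, -0.0516 and -0.0411. Deviations sum to 0 in each arm, which by itself sets these values below 0, so they are no separate comparison. No batch is named in the labels. CLP mice are numbered 24, 34, 35, 37 and 107, and MSC mice 16, 44, 61, 100 and 101. Whether these numbers mark handling groups is not stated, and their part in the differences was not tested. The p-values measure the spread between these mice and do not separate such groups from the arms. The fit was tested on simulated data with independent noise in each heart. That simulation held no outlying heart, so it does not cover the shifts seen without 107C or 78S. Array number limits the precision.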

Additional observations from a re-analysis of the deposited data

Results flagged for a closer look

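Within groups of 5 hearts, single hearts lay far from the rest in 19 of 141 groups examined (30 probes and 17 marker means in 3 arms). Chance gives about 1 in 20 for independent groups. These probes were picked and all groups share the same hearts, so the count is not compared with that rate. The figure given for each is its gap to the nearest heart divided by the range of the group. For the called probe Zranb3, MSC heart 16M was low (8.18 log2, 0.954). CLP heart 107C was low for Apex1 (6.75, 0.718) and Snora65 (8.46, 0.75). Sham heart 78S was low for Mylk3 (10.39, 0.806) and high for Ampd2 (6.70, 0.728), and sham heart 77S was high for 8430426J06Rik (6.03, 0.767).

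Among marker means, sham heart 78S was high for B cells (6.78, 0.835), thymocytes (8.65, 0.812), lung epithelium (8.28, 0.798) and skeletal muscle (6.51, 0.786), and low for fibroblasts (9.04, 0.841) and endothelium (9.66, 0.815). CLP heart 107C was high for T and NK cells (8.00, 0.858) and CLP heart 37C for skeletal muscle (9.15, 0.912). MSC heart 61M was high for T and NK cells (6.55, 0.758), B cells (7.03, 0.765), hepatocytes (8.97, 0.741) and skeletal muscle (8.91, 0.829), and MSC heart 16M for endothelium (11.12, 0.715). Of the 3 hepatocyte genes, Apoa1 read 11.79 and Ahsg 10.81 in 61M (at most 8.72 and 10.16 elsewhere). Alb, the third, read 4.31 there, within its range over all hearts (3.41 to 4.91). The part of these hearts in the results was not tested beyond the counts without them.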

How the results depend on the processing

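The count of probes called between MSC and CLP hearts, 1 as reported, was 39 with only the CLP and MSC hearts in the fit, 0 with no filter on dim probes, 4 with a floor of 7 log2, 2 after scaling to a common 75th percentile, 2 after a repeated quantile normalization, 2 over all probes of the second table, 762 with array weights, 283 with the lymphocyte marker level as covariate and 864 without hearts 78S, 107C, 37C and 61M. Leaving out single hearts gave 0 to 682. Heart minus other organs, with 0 as reported, gave 40 with the mouse as a replicate block, 9 with array weights, 127 without mice 78S, 107C, 37C and 61M, and 0 to 54 without single mice. Zranb3 kept its direction in all 26 alternatives (1.40 to 1.72 log2) and passed in 16 (limma adjusted p over all 26, 8.53e-04 to 0.17). No named probe changed sign in any of them. The fits over all probes without single hearts or with array weights were added after seeing the data. Beyond the settings given, the cause of these shifts was not tested. With 5 hearts per arm, the number of arrays limits the precision, and probes near the highest value (16.03 log2) have little room to differ.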
